A study of Mus musculus with 6 samples.

Results

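The Zbtb genes encode proteins with a BTB domain at the amino end and zinc fingers of the C2H2 type. Rows of the deposited gene table whose symbol is Zbtb, a number and up to a pair of further letters were taken, and those with a mean of at least 100 reads over the 6 libraries were described. Of 23281 genes, 41 matched by symbol and 39 reached the read minimum. Zbtb16 (PLZF, a repressor in germ line stem cells and lymphocytes), with a mean of 11.8 reads, and Zbtb7c, with 58.0, fell below it, and the member nearest above it was Zbtb42 with 106 reads. One of the 39, Zbtb8os, shares the symbol only. It is named for lying opposite Zbtb8a and encodes archease, a cofactor of the tRNA ligase complex, with neither a BTB domain nor zinc fingers, so counts are also given for the 38 others.

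In BTB zinc finger proteins the zinc fingers bind DNA, while the BTB domain pairs the proteins and recruits corepressors such as NCOR1 and BCOR, or the CUL3 ubiquitin ligase scaffold. Most of the studied ones repress transcription, and several set lineage choices in blood and brain. Kaiso (Zbtb33) and its relatives Zbtb4 and Zbtb38 bind methylated CpG, and Zbtb24 is needed for DNA methylation at pericentromeric repeats.

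The 6 libraries came from female mouse embryonic stem cells, 129S x Cast, in which a TetOn promoter drives Xist from the 129S allele and a Bgl stem-loop sits at its 3' end. All 6 cultures received 1 µg/ml doxycycline for 17.5 to 20 h and 500 µM 4-thiouridine (4sU, a uridine analogue that marks new RNA) for 4 h. They then stayed 0, 30, 60, 90, 120 or 150 min in medium with doxycycline and, except at 0 min, 50 mM uridine. Nuclear RNA was alkylated so that 4sU reads as a T-to-C (T>C) conversion, which is the SLAM-seq assay. Each time had 1 library, so p-values rest on how far the 6 libraries scatter about a fitted trend, and variation between cultures was not measured. No library without 4sU and none without doxycycline was analysed here.

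Library totals ran from 18558073 to 28535162 reads, of which the 39 Zbtb genes held 27362 to 37367. Summed over the whole table, T>C conversions made up 4.05, 2.69, 4.11, 2.57, 1.55 and 1.17% of covered T positions in order of washout time. The 30 min library therefore lay below the 60 min library. The time of each column was read from its number in the table's header, 3 for 30 min and so on, with no number for 0 min. Summed stem cell markers (10 of 10 measured, Pou5f1, Nanog and Sox2 among them) stood at 2863 to 3357 CPM (read counts scaled to library size with TMM factors). Summed fibroblast feeder markers (10 of 10 measured, only Lum at 0 in any library) stood at 2513 to 3940 CPM, or 265 to 409 CPM without Fn1. Cells had been pre-plated to remove feeders, and the part of feeder RNA in the Zbtb values was not tested. In bulk RNA, fewer cells of a type and less RNA per cell cannot be told apart.

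Promoters of 3 genes are shown because they belong to RNAs at opposite ends of the decay order below. They are Zbtb43, which lost label fast at high depth, Zbtb26, which shares its GENCODE start region with Zbtb6, and Zbtb8os, with no detected loss. Each holds the 300 bases around the RefSeq start, 5′ to 3′ on the gene's strand in GRCm38.p6 (the mm10 assembly). Capitals mark GGGCGG (the GC box), CCGGAAG (an ETS-type word) and TGACGTCA (the cyclic AMP response element), searched on both strands, and no marked words overlap in these windows.
Zbtb43, chr2:33468483-33468782, minus strand: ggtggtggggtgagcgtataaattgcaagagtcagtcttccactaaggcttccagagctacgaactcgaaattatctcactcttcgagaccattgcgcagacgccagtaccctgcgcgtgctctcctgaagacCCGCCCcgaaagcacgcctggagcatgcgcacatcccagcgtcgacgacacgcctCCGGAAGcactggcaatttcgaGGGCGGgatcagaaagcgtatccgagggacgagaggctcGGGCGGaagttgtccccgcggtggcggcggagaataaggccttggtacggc
Zbtb26, chr2:37443123-37443422, minus strand: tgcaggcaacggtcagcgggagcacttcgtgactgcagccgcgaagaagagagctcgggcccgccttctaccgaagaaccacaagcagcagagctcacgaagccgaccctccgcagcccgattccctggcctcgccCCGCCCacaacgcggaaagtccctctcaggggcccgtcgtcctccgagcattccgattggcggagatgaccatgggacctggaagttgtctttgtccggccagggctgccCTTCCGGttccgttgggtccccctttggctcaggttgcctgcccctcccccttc
Zbtb8os, chr4:129335718-129336017, plus strand: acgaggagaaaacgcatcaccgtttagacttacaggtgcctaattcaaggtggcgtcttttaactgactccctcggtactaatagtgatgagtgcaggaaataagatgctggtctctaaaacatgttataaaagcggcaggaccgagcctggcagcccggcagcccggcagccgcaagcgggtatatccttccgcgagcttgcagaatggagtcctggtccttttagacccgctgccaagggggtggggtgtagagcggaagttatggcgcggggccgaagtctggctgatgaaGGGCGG

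RefSeq windows were matched for 36 of the 39 genes, 49 windows in all. The GC box was found for 27 of 36 genes (75%), beside 71.5% of the tested genes that have a window and 35.7% of all 32851 windows. CCGGAAG was found for 12 of 36 genes (33.3%), namely Zbtb6, Zbtb9, Zbtb11, Zbtb24, Zbtb26, Zbtb33, Zbtb34, Zbtb37, Zbtb38, Zbtb41, Zbtb43 and Zbtb45, against 21.3% of tested genes and 8.86% of all windows. TGACGTCA was found for Zbtb11 and Zbtb21 (5.56% of 36, 3.76% of tested genes, 1.79% of all windows). TATAAA was found for 3 of 36 genes, Zbtb18, Zbtb43 and Zbtb8os, or 8.33%, beside 8.18% of tested genes and 13.6% of all windows. Gene shares count a match in any window of a gene, while shares of all windows count single windows. Per window the members had the GC box in 67.3%, CCGGAAG in 24.5%, TGACGTCA in 4.08% and TATAAA in 12.2%. Windows of tested genes had them in 64.4, 18.1, 3.13 and 6.69%. The members' windows had a median GC content of 63.3%, against 61.3% in windows of tested genes.

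Each of the 38 BTB zinc finger RNAs lost label in nuclei after 4sU was removed, with half-lives from 34.6 to 162 min. At 0 min the median Zbtb RNA was 83.5% labelled, and 24 of the 38 BTB zinc finger RNAs were above 80%. At 150 min the median was 10.4%, and 17 of 38 were below 10%. Over all 11462 genes tested the median went from 46.8% to 21.1%. The labelled share fell for 38 of 39 members and rose for 0 (limma, Benjamini-Hochberg adjusted p under 0.05 over all genes tested). Across those genes the background of the same call was 52.3% falling and 1.19% rising. The decay rate is the rate at which ln of the labelled share declines with time, and the half-life is ln 2 over it. Read as a half-life of RNA, it takes total levels as constant. On labelled abundance (labelled share times CPM) the median rate of the 39 members was 0.771 per h. Each rate is 1 slope through all 6 libraries, and the shares did not decline at a constant rate. The median Zbtb RNA was 83.5, 57.4, 74.8, 38.0, 18.55 and 10.4% labelled in time order. At 60 min 32 of the 38 were below their 0 min value, a share not computed over all genes. A half-life here summarises the whole washout and does not predict the share at a given time. Because the RNA is nuclear, export and decay are not told apart. The median decay rate was 0.833 per h over the 39 and 0.837 per h over the 38 (a half-life of 49.7 min), against 0.247 per h over all genes tested. Of the 39, 31 lay above the upper quartile of all genes (0.493 per h) and 24 above their 90th percentile (0.719 per h).

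**Figure D1:**
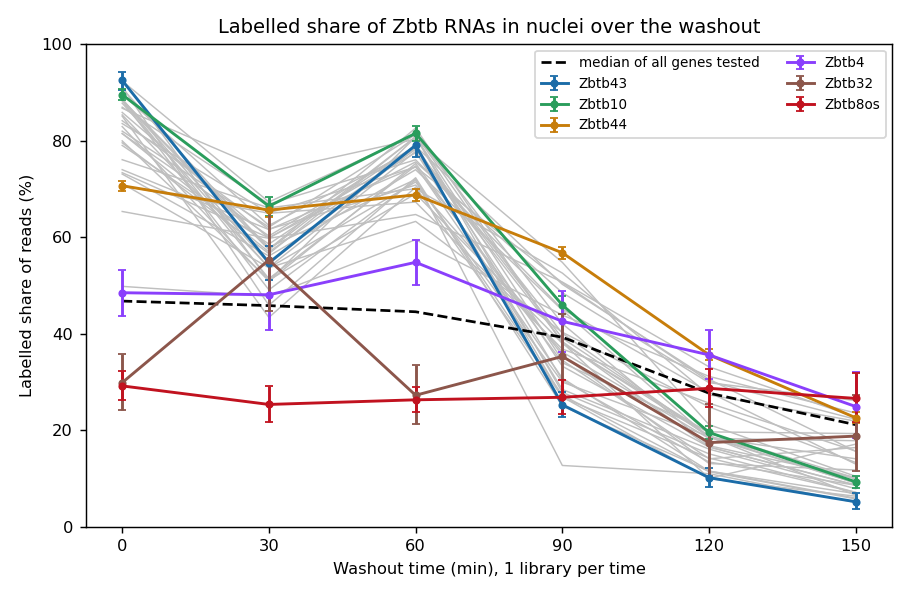
Labelled share of reads (%, posterior mean) of 39 Zbtb RNAs against washout time (min), 1 library per time. Grey lines are single genes, coloured lines are named genes with 5% to 95% posterior ranges, and the dashed line is the median of all genes tested. Most lines start above 80% and end near 10%, dip at 30 min, and Zbtb8os stays between 25.3% and 29.2%.

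The fastest members were Zbtb3 and Zbtb43. In time order Zbtb43 was 92.4, 54.7, 79.0, 25.3, 10.2 and 5.18% labelled, with 5% and 95% posterior quantiles of 90.4 and 94.2% in the first library. Its half-life was 35.3 min (31.7 to 40.0, the values 1 SE to either side). Zbtb3 was 88.4, 57.9, 71.9, 12.7, 11.0 and 5.03% labelled in time order, with a half-life of 34.6 min, on 108 to 135 reads per library against 779 to 1096 for Zbtb43. These RNAs ranked 40 and 46 from the fastest among 11462 genes, and their ranges at 1 SE overlap. Both had an adjusted p of 5.12e-05 by limma.

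Zbtb9 followed with 88.2, 49.1, 71.8, 27.3, 11.4 and 5.77% labelled and a half-life of 38.3 min. Zbtb26 had 91.2, 45.9, 72.3, 25, 11.5 and 5.92%, a half-life of 38.6 min. Zbtb6 had 85.1, 43.4, 70.3, 26.9, 9.95 and 6.33%, a half-life of 39.6 min. In these RNAs the 0 and 60 min libraries were the highest and the 120 and 150 min libraries the lowest. Zbtb26 (chr2:37432168-37443135) and Zbtb6 (chr2:37425500-37443171) lie on the same strand in GENCODE M21, start 36 nt apart and overlap by 10968 nt with shared exon sequence. The RefSeq start window of Zbtb6 lies at chr2:37430870-37431169, outside that span of Zbtb26, so the shared start and overlap hold for GENCODE only. The like values of Zbtb26 and Zbtb6 may rest in part on the same reads, which was not tested.

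Zbtb37 had 88.6, 51.4, 74.8, 30.8, 11.5 and 6.86% labelled, a half-life of 40.1 min. Zbtb39 had 88.6, 54.5, 78.7, 26.8, 14.2 and 7.10%, a half-life of 41.1 min. Zbtb49 had 79.5, 56.6, 80.8, 27.8, 15.1 and 7.14%, a half-life of 42.6 min. Neighbours in this order from Zbtb3 to Zbtb49 differed by less than their SE, which was 0.127 to 0.138 per h. The adjusted p by limma was between 5.12e-05 and 5.17e-05 for all 8.

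**Figure D2:**
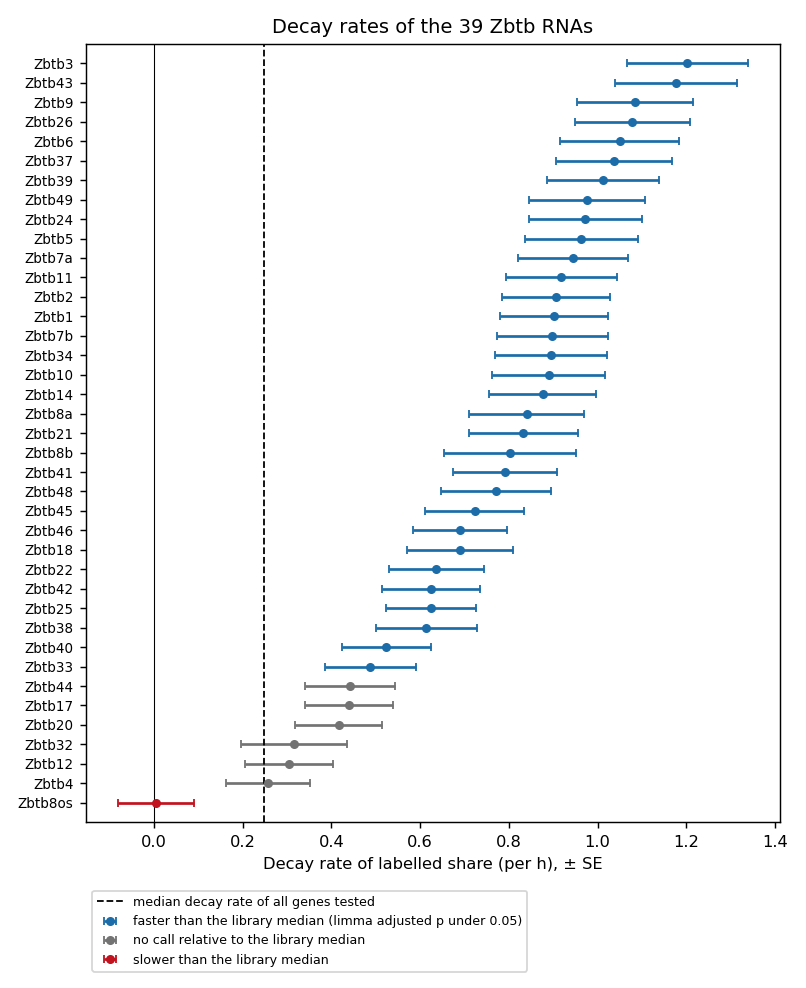
Decay rate of the labelled share (per h) of the 39 Zbtb RNAs, points with ± SE from the limma fit on 6 libraries, in falling order. Blue points (32) were called faster than the library median, grey points (6) were not called and the red point, Zbtb8os, was called slower; the dashed line is the median rate of all genes tested, 0.247 per h.

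Among members with known roles in chromatin and development, Zbtb24 had 87.7, 53.6, 71.4, 30.0, 18.7 and 6.54% labelled, a half-life of 42.8 min. Zbtb7a (LRF, a repressor of fetal globin genes) had 85.3, 53.8, 77.8, 28.45, 16.1 and 7.88%, a half-life of 44.0 min. Its relative Zbtb7b (ThPOK, which directs T cells to the CD4 lineage) had 46.3 min, close to Zbtb7a. Zbtb48 (TZAP, a telomere binding protein) had 88.3, 57.4, 80.8, 34.5, 14.1 and 16.4%, a half-life of 54.0 min. In Zbtb48 the 150 min value was not below the 120 min value, as also in Zbtb8b (10.1 and 17.1%). Zbtb10 (a repressor of Sp factor expression), at 2112 to 3018 reads per library, had 89.5, 66.4, 81.5, 45.9, 19.5 and 9.30%, a half-life of 46.8 min.

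The methyl-CpG binding group lost label more slowly than most of the family by point estimate. Kaiso (Zbtb33, X:38189793-38197046, the only X-linked member) was 74.0, 61.6, 74.6, 50.6, 30.1 and 22.3% labelled, so its half-life came to 85.3 min (70.5 to 108 within 1 SE). Zbtb38 had 67.7 min (57.2 to 83.1). Zbtb4 was 48.5, 48.1, 54.8, 42.6, 35.6 and 24.9% labelled, and its half-life of 162 min (118 to 258; adjusted p = 0.0323 by limma) was the longest among the members that fell. All 3 lay under the family's median rate, and the difference between them and the others was not tested.

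Zbtb44 was the most abundant member, with 3925 to 6367 reads per library and a median of 25.2 CPM per kb, and a slow one. It was 70.6, 65.6, 68.8, 56.8, 35.6 and 22.6% labelled, and its half-life was 94.2 min (76.6 to 122). Zbtb17 (MIZ1, the partner through which Myc represses genes) had 73.4, 59.9, 75.6, 48.5, 29.8 and 26.1%, a half-life of 94.6 min. Zbtb17 overlaps Spen on the opposite strand, whose RNA had 57.8 min. Zbtb20, a repressor of fetal liver genes, had 65.3, 59.8, 64.7, 50.7, 33.1 and 22.7%, a half-life of 99.9 min. These 3 RNAs kept over 22% label at 150 min, where Zbtb43 had 5.18%.

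Zbtb12 and Zbtb32 were slow and poorly covered. Zbtb12, with 130 to 219 reads per library, was 49.8, 47.8, 59.5, 43.9, 31.2 and 23.6% labelled, and its half-life was 137 min (adjusted p = 0.0171 by limma). Zbtb32 (PLZP, a repressor in lymphocytes), with 95 to 175 reads, was 29.9, 55.3, 27.2, 35.3, 17.4 and 18.8% labelled, and its half-life was 132 min (adjusted p = 0.0350 by limma). Its 30 min value stood above all others (44.8 to 65.5% posterior range, against 24.2 to 35.8% at 0 min), unlike the other BTB zinc finger members. Calls of a fall were less stable among these slow members. Zbtb32 and Zbtb4 were no longer called without the 30 min or the 120 min library, where the rate of Zbtb4 was 0.265 and 0.268 per h against 0.256 per h with all libraries and that of Zbtb32 0.211 and 0.255 against 0.315 per h. Zbtb32, Zbtb4 and Zbtb12 were not called with no read minimum (limma adjusted p = 0.103, 0.0706 and 0.0509). That setting leaves their rates as they are and adds genes to both the variance estimate and the adjustment. Zbtb4 and Zbtb12 were not called on labelled abundance (0.208 and 0.247 per h), nor Zbtb32 on the logit scale (adjusted p = 0.0758). Neither were Zbtb4, Zbtb12, Zbtb20, Zbtb32 and Zbtb44 without the 150 min library (rates of 0.148 to 0.305 per h), which left 33 of 39 falling. The share of all genes that fell without that library was not computed.

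The remaining members, from Zbtb5 (43.2 min) to Zbtb40 (79.4 min), all fell. Zbtb2, a repressor in the p53 pathway, had 45.9 min. Zbtb1, needed for lymphoid development, had 46.1 min, and its divergent neighbour Zbtb25, with a start site 664 nt away, had 66.6 min. Zbtb18 (RP58, needed for cortical neurogenesis) and Zbtb46, a marker of classical dendritic cells, had 60.3 min each. Over all 38, 24 half-lives were under 60 min, 8 between 60 and 90 min and 6 above 90 min. Length and exon number had weak rank correlations with the rate. Across genes, Spearman's rho of decay rate was -0.02 with transcript length, -0.19 with the number of coding exons and 0.18 with mean reads (38 genes in the same 6 libraries). The 11 genes with a single coding exon had a median rate of 0.902 per h and the 10 with at least 5 had 0.781 per h, with ranges of 34.6 to 137 min and 42.6 to 132 min.

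Zbtb8os, the member without a BTB domain, was the exception. It was 29.2, 25.3, 26.3, 26.8, 28.7 and 26.6% labelled in time order, on 311 to 621 reads. The posterior ranges of all 6 libraries overlap, and no slope was detected (0.0042 ± 0.086 per h, SE; adjusted p = 0.973 by limma). The raw T>C rate of Zbtb8os was 3.06% in the first and 1.08% in the last library, a slope that missed the threshold (adjusted p = 0.0513 by limma). Zbtb8os (chr4:129335695-129354547, plus strand) and Zbtb8a (chr4:129353628-129378116, minus strand) meet tail to tail and overlap by 920 nt. Zbtb8a was 86.7, 73.6, 80.3, 54.8, 21.2 and 10.4% labelled, a half-life of 49.5 min. At every time up to 90 min Zbtb8a carried over 50% label and Zbtb8os under 30%, and by 150 min Zbtb8a was the lower.

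To ask whether a member lost label faster than other RNAs, the natural log of each share was taken relative to the median over all genes in the same library. This median itself declined at 0.320 per h. Against it, 32 of 39 members were faster and 1, Zbtb8os, was slower (limma adjusted p under 0.05), where 25.2% of all genes tested were faster and 36.9% slower. Zbtb43 lost label faster than the library median by 0.857 ± 0.124 per h (SE; adjusted p = 0.00679), and Zbtb10 by 0.569 ± 0.100 per h. Kaiso was faster by 0.167 ± 0.063 per h (adjusted p = 0.0466), the smallest called difference. The Kaiso call was lost without any 1 of the 0, 30, 90, 120 or 150 min libraries (differences of 0.151 to 0.193 per h, adjusted p from 0.0515 to 0.197) and with no read minimum (adjusted p = 0.0917). Zbtb8os was lower than the median rate, at -0.316 ± 0.077 per h (adjusted p = 0.0116). The 6 members with no call were Zbtb44, Zbtb17, Zbtb20, Zbtb32, Zbtb12 and Zbtb4, with differences from 0.121 to -0.064 per h. Without the 0 min library 25 members were faster and 1 slower, beside 15.6% and 24.4% of all genes, and Zbtb46, Zbtb8b, Zbtb40, Zbtb48, Zbtb38, Zbtb42 and Kaiso lost the call. With no read minimum Zbtb8b, Zbtb40, Zbtb42 and Kaiso lost it. Every call depended on the 150 min library: without it 0 of 39 members and 0% of all genes passed, with 0.0852 the smallest adjusted p of any gene. Without that library 36 of 39 members still had a positive difference, a share not computed over all genes. A positive difference at an unadjusted p under 0.05 by limma was seen in 30 members, against 19.1% of all genes.

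Related lists were chosen with earlier results of these data known and are given as counts only. Of 8 BTB zinc finger genes under other symbols, 7 were tested and 7 fell, with a median decay rate of 0.754 per h, from Patz1 (39.5 min) and Hic2 (41.7 min) to Gzf1 (67.1 min) and Bcl6 (117 min). Of 325 tested Zfp genes, zinc finger genes mostly without a BTB domain, 311 fell and 1 rose (median 0.695 per h), from Zfp39 (28.3 min) and Zfp574 (29.7 min) to Zfp706 (169 min) and Zfp729b (172 min). Of 34 tested Klhl, Kbtbd and Btbd genes, which have a BTB domain but no C2H2 fingers, 29 fell (median 0.509 per h), from Kbtbd2 (41.5 min) and Klhl21 (48.6 min) to Btbd11 (159 min) and Klhl26 (178 min). The list medians thus stood in the order Zbtb, other BTB zinc finger, Zfp, other BTB, all genes. Being faster than the library median was also common in these lists (limma adjusted p under 0.05). It was called for 6 of 7 other BTB zinc finger genes, 247 of 325 Zfp genes and 18 of 34 other BTB genes, beside 32 of 39 Zbtb members. No test of the difference between lists was made.

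Corepressors and other partners of BTB zinc finger proteins, Cul3 included, were also read. Of 15 tested, 7 fell (46.7%, beside 52.3% of all genes), with a median rate of 0.145 per h, where all genes had 0.247 per h. Against the library median 3 of 15 were faster (20%, beside 25.2%). Myc, the partner of Zbtb17, was fast (37.0 min, from 85.2% to 4.22% labelled), as was Bcor (73.1 min), whereas Gps2 had 134 min and Ncor1 148 min. The deacetylase RNAs Hdac1, Hdac2 and Hdac3 were 20.6, 20.9 and 16.9% labelled at 0 min and 25.3, 22.3 and 15.5% at 150 min. No fall was called for these 3, nor for Cul3 (34.9 and 29.4%; limma adjusted p = 0.618), Sin3b, Tbl1x or Ctnnd1.

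**Figure D3:**
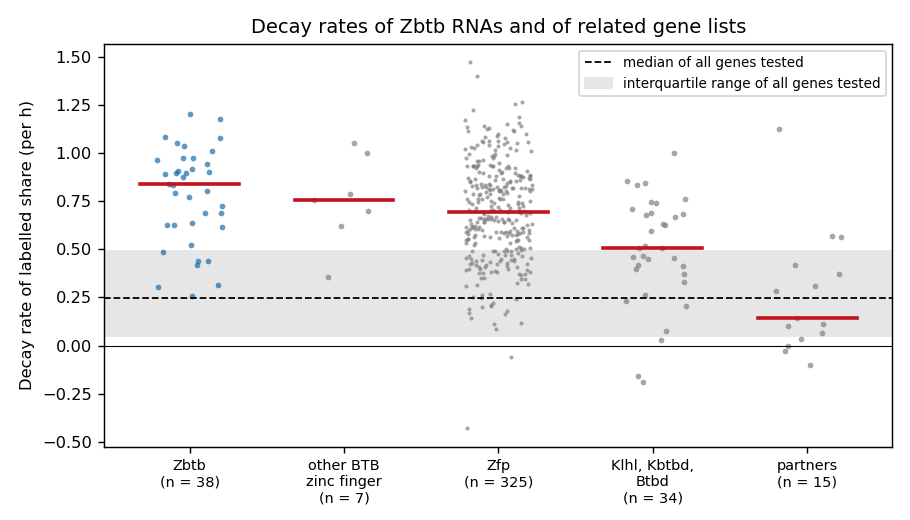
Decay rate of the labelled share (per h) of single genes (points) in 38 Zbtb genes without Zbtb8os and in 4 related lists, with list medians as red bars. The dashed line and grey band are the median and interquartile range of all 11462 genes tested. The Zbtb bar stands at 0.837 per h and the partner bar at 0.145 per h, with Myc alone above 1 per h among the partners.

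AU-rich words, known as sites of mRNA destabilising proteins, were searched in the longest annotated 3′ UTR of each gene (GENCODE M21, sense strand, overlapping matches of ATTTA within TATTTAT counted). TATTTAT occurred in 22 of 38 BTB zinc finger genes (57.9%), against 32% of 11035 tested genes with a 3′ UTR of at least 100 nt. The Zbtb 3′ UTRs were longer (median 2604 against 1452 nt), and ATTTA per kb had a median of 1.59 against 1.31. Within the family ATTTA per kb and decay rate had a Spearman rho of -0.02 across 38 genes. Examples from both ends of the order are shown with the word in capitals.
Zbtb43: aaagttatttTATTTATgcaagtcagg
Zbtb26: aaattactgtTATTTATttattattta
Zbtb6: atgtggttgtTATTTATattatttatt
Zbtb4: atctgaccacTATTTATctccagattt
Zbtb8os: tttttaatttTATTTATtattatagta
Zbtb3, the fastest member, had a 3′ UTR of 265 nt with 0 ATTTA, and Zbtb8os, with no detected slope, had 2 TATTTAT in 2981 nt. Kaiso had 10 ATTTA and 0 TATTTAT.

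The raw T>C rate, which uses no model of the labelled share, fell for 38 of 39 members, beside 66.9% of all genes tested (limma adjusted p under 0.05). Zbtb43 went from 9.53% at 0 min to 3.07, 9.07, 1.56, 0.617 and 0.351%, and Zbtb44 from 7.45% to 4.52, 7.68, 4.06, 1.93 and 1.18%. Half-lives on this measure were shorter, with a median of 39.4 min over the 38 and 31.5 min for Zbtb43. Why this measure differs was not tested. In labelled share, 37 of 38 BTB zinc finger members were higher at 60 than at 30 min, Zbtb32 being the exception, where 47.1% of all genes tested were higher. The related lists were alike in this. The share was 100% for BTB zinc finger genes under other symbols, 89.8% for Zfp genes and 85.3% for Klhl, Kbtbd and Btbd genes. From 60 min on, 35 of 38 declined at every step. The median of all genes tested did so too (44.5, 39.3, 27.7 and 21.1%), and the share of all genes that did was not computed.

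Label taken up before the washout gave longer half-lives. If levels were constant, the 0 min share corresponds to a median half-life of 91.3 min over the 38 members, against 49.7 min from the washout. The uptake value was the longer in 38 of 38. How often this held over all genes was not computed, so the count does not set the family apart. Zbtb5 had the highest 0 min share, 92.7%, and an uptake half-life of 63.5 min. The uptake half-life of Zbtb43 was 64.4 min beside 35.3 min in the washout, that of Zbtb44 136 beside 94.2 min, and that of Zbtb4 251 beside 162 min. The share at 0 min and the decay rate had a Spearman rho of 0.80 across 38 genes. Both use the 0 min library, so this is a description only.

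No change in the total reads of any member was called over the washout by the main test, edgeR. Of 39 members, 0 rose and 0 fell by edgeR (adjusted p under 0.05), as for 0% of 15743 genes tested. At an unadjusted p under 0.05 by edgeR, 11 members rose and 2 fell, beside 11.5% and 10.2% of these 15743 genes, which include genes below the members' read minimum. Of the 11462 genes tested for label, which meet it, 2762 passed, 1630 of them rising. Of 374 Zfp genes 85 passed, 75 of them rising. Slopes were positive for 25 of 39 members (64.1%), with a median of 0.10 log2 per h. Over the genes tested for label 52.7% were positive, with a median of 0.01, and over the Zfp genes 77.8%, with a median of 0.10. Scaled reads are relative to the library and cannot show absolute levels.

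Zbtb37 had 44.9, 53.0, 42.0, 54.3, 66.6 and 81.3 CPM, and its slope was 0.32 ± 0.08 log2 per h (SE; edgeR adjusted p = 0.0952). Its highest values were those of the last 2 libraries, which is a description only, since the gene was named for its slope. Zbtb22 had 26.5, 32.9, 27.9, 33.9, 40.0 and 42.3 CPM, a slope of 0.25 ± 0.07 log2 per h (edgeR adjusted p = 0.104). DESeq2 called both as rising (adjusted p = 0.0153 and 0.0388), and no other member, where it called 1.96% of all genes rising and 2.17% falling. Zbtb22 shares exon sequence on the same strand with Tapbp, which had a mean of 2074 reads and no called label loss (limma adjusted p = 0.996). Whether Tapbp reads enter the Zbtb22 values was not tested. Zbtb46 (4.9 to 9.2 CPM from first to last library, 0.35 log2 per h) and Zbtb8b (3.9 to 8.5 CPM, 0.31 log2 per h) had slopes as high on fewer reads.

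The lowest slopes belonged to Zbtb5 and Zbtb7b. Zbtb5, a repressor of Cdkn1a, had 17.9, 16.9, 20.7, 14.9, 11.8 and 11.4 CPM, a slope of -0.30 ± 0.09 log2 per h (edgeR adjusted p = 0.126). Zbtb7b had 38.8, 35.4, 40.0, 25.3, 26.8 and 26.7 CPM, a slope of -0.26 ± 0.08 log2 per h (edgeR adjusted p = 0.117). In both genes the 3 libraries from 90 min on were the lowest and did not overlap with the first 3. Both were named for their low slopes in these libraries, so the split is a description only. How many of all genes split this way was not computed. Zbtb7a (59.3, 53.0, 60.4, 37.7, 49.8 and 52.8 CPM) and Zbtb8a were next, at -0.10 log2 per h each. Without the 60 min library edgeR called 5 members rising, Zbtb37, Zbtb22 and Zbtb46 among them, and 2 falling, Zbtb5 and Zbtb7b, where 5.06% of all genes were called rising and 4.13% falling. With the 30 and 60 min times exchanged 8 members rose and 2 fell, beside 10.1% and 8.22% of all genes. With no low-count filter 1 member rose and 0 fell, beside 0.747% and 0.966%. Kaiso, X-linked in cells that induce Xist from 1 X, had a slope of 0.11 ± 0.07 log2 per h (edgeR adjusted p = 0.346).

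**Figure D4:**
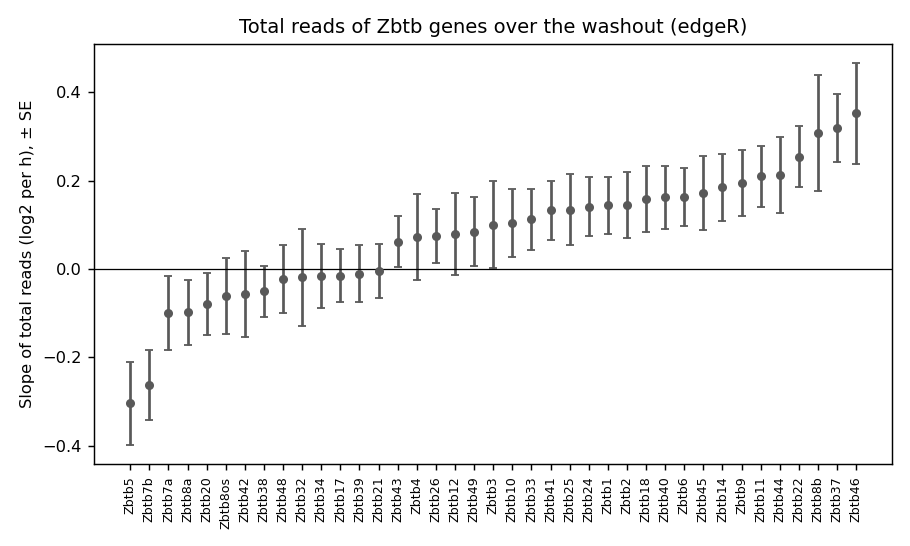
Slope of total reads on washout time (log2 per h, edgeR with TMM, points ± SE from 6 libraries) for the 39 Zbtb genes in rising order. Slopes run from -0.30 (Zbtb5) to 0.35 (Zbtb46), and none passed an adjusted p under 0.05.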

How the data were processed

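Nuclear RNA of 6 cultures was measured, 1 library of paired 81 nt reads per washout time. The submitters' processing notes name STAR 2.5.2b and mm10. The sources used here do not name the program behind the gene table, its annotation or its strand setting, so values of overlapping genes are uncertain. Members sharing exon sequence on the same strand with a measured gene were Zbtb22 (Tapbp), Zbtb21 (C2cd2), and Zbtb26 and Zbtb6 (each other). Per the file headers, the authors deposited raw read counts, a labelled fraction per gene (posterior mean, mode, 5% and 95% quantiles), and T>C conversions with the coverage of T positions, printed with 4 significant digits and treated as a signal. The table's length column was used for CPM per kb, and 30 other columns of per-library values (such as posterior parameters and double hits) were not used.

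The slope of ln fraction on time was fitted with limma 3.58.1 over 11462 genes (mean of at least 100 reads, fraction above 0 in all libraries, 4 residual degrees of freedom), as such and relative to library medians. Counts were fitted with edgeR 4.0.16 (quasi-likelihood, TMM, filterByExpr), with DESeq2 1.42.0 as an alternative. Models were tested on simulated data. All p-values are two-sided. Posterior quantiles cover counting and model error within a library only. Gene IDs matched GENCODE M21 for 23223 genes (99.8%) and all 39 members. Promoters came from RefSeq (GRCm38.p6).

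Members and lists were chosen with earlier results of these data known. Values in every library are given for the 8 shortest and 5 longest half-lives among members that fell. They are also given for members with no called fall, the 2 with most reads, and Zbtb17, Zbtb33, Zbtb7a, Zbtb24 and Zbtb48. Others, such as Zbtb8a, were chosen after their values were seen. The values of 1 partner gene are not reported here. For total reads the 4 highest and 4 lowest slopes are named. The alternatives left out each library, or changed measure, scale, filter, scaling or time order.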

Additional observations from a re-analysis of the deposited data

How the results depend on the processing

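No paired analysis was possible because there was a single library at each time. The count of members that fell was 33 to 38 of 39 when single libraries were left out and 30 to 38 under the other alternatives run, with 31 members tested at a mean of at least 300 reads. The falling share of all genes was computed only for the main fit (52.3%) and the raw T>C rate (66.9%). The median decay rate (0.833 per h) ranged from 0.714 to 0.986 without single libraries, and was 1.05 per h on the raw T>C rate and 1.50 per h on the logit scale, which is a rate of the odds. The count of members faster than the library median ranged from 0 to 32 and the count slower from 0 to 1 without single libraries, both 0 without the 150 min library. Without Zbtb8os, 0 members were slower.

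Members with no call against the library median were called faster under some settings. These were Zbtb44 and Zbtb20 on the logit scale (adjusted p = 0.0183 and 0.0454) and with libraries centred on median deviations (0.0279 and 0.0372), and Zbtb17, Zbtb44 and Zbtb20 with 30 and 60 min exchanged (0.0255, 0.0258 and 0.0362). Other uncalled differences changed sign. For Zbtb32 it was 0.0134 per h on the raw T>C rate, 0.0114 on the posterior mode and 0.0657 when libraries were centred on the median deviation of genes from their own means, a setting chosen after seeing the data. For Zbtb12 it was 0.0035 on the logit scale, 0.0124 with 30 and 60 min exchanged and 0.0547 with that centring, and for Zbtb4 0.0065 with that centring. Without single libraries it ranged from -0.110 to 0.116 for Zbtb32 and from -0.036 to 0.0074 for Zbtb12. With that centring 34 members were faster and 1 slower, against 31.1% and 26.3% of all genes. The decay rate of Zbtb8os ranged from -0.037 to 0.021 per h without single libraries.

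For total reads, members that rose numbered 0 to 5 and those that fell 0 to 2 without single libraries. With 30 and 60 min exchanged 8 rose and 2 fell, DESeq2 called 2 rising, and 1 rose with no low-count filter (shares of all genes stand with the total reads above). The cause was not tested. Depth limits Zbtb3, Zbtb12, Zbtb32, Zbtb42, Zbtb46 and Zbtb8b most, at a mean of 106 to 168 reads.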
